A study of Mus musculus with 6 samples.

Results

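The 40 genes described here encode the machinery of mitosis and cell separation: the cyclins and kinases that start mitosis, the motor and structural proteins of the spindle, and the proteins that divide the cytoplasm. They were chosen by name, with earlier results of these data known. Each name was matched through the GENCODE annotation of GRCm38 to 1 of the 52550 Ensembl gene rows in every count table, so all 40 of 40 were found. Cardiomyocytes were taken from mouse hearts at postnatal day 1, enriched magnetically and cultured for 48 hours with serum (5% from horse, 10% fetal bovine), followed by 24 hours in serum-free medium. There were 3 control libraries (genotype label ctrl) and 3 labelled GR-cKO, a conditional deletion of the glucocorticoid receptor gene. All 6 libraries carried the same treatment label, ctrl. The sources used here do not give the driver of the deletion, the deleted exon, the strain, or whether the controls carry a recombinase or a modified allele. The labels call the libraries biological replicates and do not name separate animals, litters or cultures, so the p-values reflect library-to-library spread alone, and that spread may be technical.

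A cell enters mitosis when cyclins A and B activate the kinase CDK1. Polo-like and Aurora kinases then help to build a bipolar spindle from microtubules, kinesin motors slide and shorten those microtubules, and the anaphase-promoting complex ends mitosis by marking cyclin B for destruction. Cytokinesis follows, when a RhoA-driven ring of actin and myosin constricts around the central spindle. Mouse cardiomyocytes divide before birth and, in the days after it, often complete mitosis without cytokinesis and become binucleate, which is why the genes of mitotic entry and those of cytokinesis are of separate interest in this cell type.

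Depth was similar in both groups, at 19371508 to 22583596 gene counts per library. The libraries were made from the 3′ ends of polyadenylated RNA, so a transcript gives about 1 tag whatever its length. Levels are given as CPM, gene counts divided by library depth after scaling by TMM factors, and they can be compared between genes without a correction for length. The targeted gene, Nr3c1, stood at 68.1, 73.8 and 72.3 CPM in control and at 46.1, 42.7 and 44.1 CPM in GR-cKO. Where the tags lie outside the deleted exon they can persist after deletion, and they give no measure of the receptor left. The RNA came from all cells in the dish, and a smaller share of dividing cells cannot be told apart from less of these RNAs per dividing cell.

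Of the 40 genes, 36 were lower in GR-cKO (90.0%) and none was higher (edgeR quasi-likelihood test, Benjamini-Hochberg adjusted p below 0.05 over 14386 genes). Among all genes tested, 7.19% were lower and 7.63% higher. Because the 40 were chosen with earlier results of these data known, the shares set side by side here are a description and no test. Lower calls on all genes depended on the scaling: 51.5% of calls were higher and 48.5% lower as reported, against 72.2% and 27.8% with scaling by ERCC spike-in RNAs, under which 33 of the 40 genes were still lower. The remaining 4 genes, Cdc25c, Kif18b, Kifc1 and Ckap5, did not pass. The 3 GR-cKO values all lay below the 3 control values for 38 of the 40 genes, where this was so for 14.7% of all genes tested (29.9% in either direction). In 14 of the 40 the decrease reached 2-fold, against 1.29% of all genes.

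The median log2 fold change of the 40 genes was -0.92, beside -0.01 over all genes tested. The genes that fell were left at 40.1% (Hmmr) to 70.1% (Cit) of their control level. Summed over the 40 genes, the control libraries held 1602, 1656 and 1614 CPM and the GR-cKO libraries 866.9, 859.5 and 910.5 CPM. Every GR-cKO library was thus below every control library in the sum. In control the members' levels ran from 4.52 CPM for Kifc1 to 215 CPM for Cdk1, with 5 genes at 100 CPM or more and 6 under 10 CPM. Of the 34 at 10 CPM or more, 33 fell, while 3 of the 6 scarcer genes did.

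**Figure D1:**
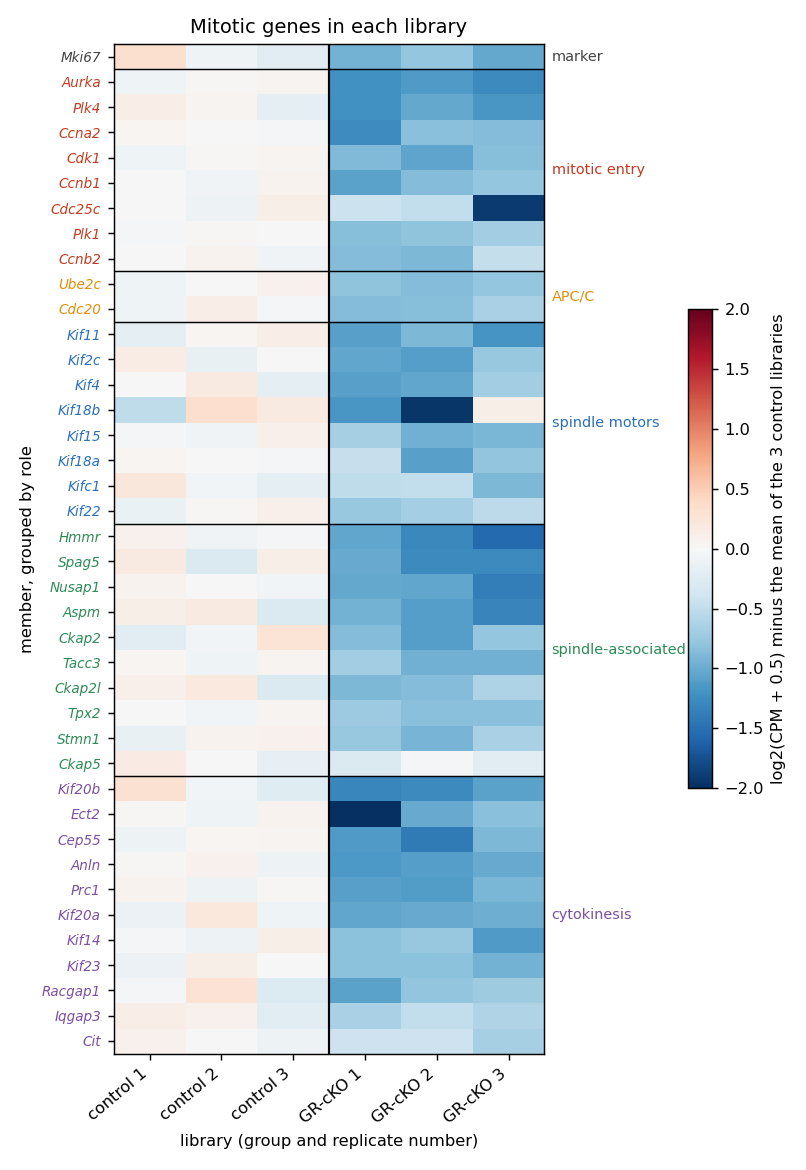
Colour gives log2(CPM + 0.5) of each of the 40 genes (rows, grouped by role) in each of the 6 libraries (columns), minus the mean of the 3 control libraries. The GR-cKO columns are blue for nearly all genes, with the pale cells of Ckap5 and of Kif18b in GR-cKO replicate 3 as exceptions.

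Genes whose RNA peaks at the end of the cell cycle often share a pair of promoter elements. One is the cell cycle genes homology region (CHR), to which the MuvB complexes bind, and the other is the CCAAT box, to which NF-Y binds. The promoters of the members were searched for both elements as a description, and a link to the difference between the groups was not tested. RefSeq promoter windows (GRCm38.p6, 250 bases before to 50 after the start of the gene) were given for 35 of the 40 genes, with 27025 genes in the whole table. The letters of the CHR core, TTTGAA on either strand, were found in 29 of these 35 (82.9%), beside 20.2% over the whole table. The variant TTTAAA, which reads the same on both strands, occurred in 8 of the 35 (22.9%), beside 14.9% over the whole table, and CCAAT on either strand in 24 (68.6%), beside 41.1%. Overlapping matches were each counted. A match is only a stretch of letters and was not measured as a bound site.

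Below is 1 promoter for each role, that of the gene with the smallest p among those with a CHR core or variant that could be printed, shown so that the shared elements can be compared. Each runs 5′ to 3′ on the gene's strand from 250 bases before the start to 30 after it, with CHR and CCAAT matches on either strand in capitals. The windows are chr7:135716350-135716629 (minus strand) for Mki67, chr10:69352883-69353162 (minus) for Cdk1, chr2:164769679-164769958 (plus) for Ube2c, chr19:37376132-37376411 (plus) for Kif11, chr11:40733408-40733687 (minus) for Hmmr and chr7:80294201-80294480 (plus) for Prc1.
Mki67: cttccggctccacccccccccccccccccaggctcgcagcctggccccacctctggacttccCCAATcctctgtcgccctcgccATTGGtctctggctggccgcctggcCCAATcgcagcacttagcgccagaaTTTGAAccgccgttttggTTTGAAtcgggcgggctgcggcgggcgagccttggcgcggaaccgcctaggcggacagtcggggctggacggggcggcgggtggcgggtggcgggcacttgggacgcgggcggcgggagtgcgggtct
Cdk1: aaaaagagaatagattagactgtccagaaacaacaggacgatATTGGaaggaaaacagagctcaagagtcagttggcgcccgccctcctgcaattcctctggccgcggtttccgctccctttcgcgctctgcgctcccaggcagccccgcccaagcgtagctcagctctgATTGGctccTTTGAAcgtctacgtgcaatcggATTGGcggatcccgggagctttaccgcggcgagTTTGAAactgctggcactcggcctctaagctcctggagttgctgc
Ube2c: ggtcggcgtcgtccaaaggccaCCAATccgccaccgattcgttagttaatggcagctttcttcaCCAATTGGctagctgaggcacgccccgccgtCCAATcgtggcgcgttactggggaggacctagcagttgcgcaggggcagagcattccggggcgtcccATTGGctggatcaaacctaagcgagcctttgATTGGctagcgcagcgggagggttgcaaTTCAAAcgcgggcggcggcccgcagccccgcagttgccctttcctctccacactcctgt
Kif11: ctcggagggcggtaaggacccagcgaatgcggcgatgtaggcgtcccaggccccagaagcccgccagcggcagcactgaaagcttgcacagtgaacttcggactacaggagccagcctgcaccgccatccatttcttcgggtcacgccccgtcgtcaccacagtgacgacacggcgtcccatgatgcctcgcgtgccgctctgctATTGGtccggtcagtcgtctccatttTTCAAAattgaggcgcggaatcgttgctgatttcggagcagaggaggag
Hmmr: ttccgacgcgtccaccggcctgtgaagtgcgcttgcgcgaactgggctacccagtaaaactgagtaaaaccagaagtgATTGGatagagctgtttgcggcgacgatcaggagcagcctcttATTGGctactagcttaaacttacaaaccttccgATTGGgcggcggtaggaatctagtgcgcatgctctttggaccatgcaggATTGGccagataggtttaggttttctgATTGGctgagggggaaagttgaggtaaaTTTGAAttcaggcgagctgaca
Prc1: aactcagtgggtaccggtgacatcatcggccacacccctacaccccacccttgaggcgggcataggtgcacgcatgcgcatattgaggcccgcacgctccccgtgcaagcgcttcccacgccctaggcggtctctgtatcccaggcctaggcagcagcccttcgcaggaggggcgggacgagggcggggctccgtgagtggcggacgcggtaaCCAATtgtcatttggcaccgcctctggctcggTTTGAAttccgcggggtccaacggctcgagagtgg
The choice required a CHR match, so its presence in these 6 is no result; Nusap1, with a smaller p than Hmmr, was passed over because it has none. The number of CCAAT matches, which the choice did not use, ran from 1 in Kif11 and Prc1 to 6 in Ube2c, where a pair overlaps. Mki67 and Cdk1 hold 2 CHR cores each.

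Over the 35 genes, with 1 window per gene, the 38 CHR core matches had a median position 10 bases before the start, and 18 of them began at or after it. The 55 CCAAT matches lay further upstream, at a median of 54 bases before the start, with 1 at or after it. The 6 genes without a CHR core were Ccnb1, Plk4, Kif18a, Nusap1, Tacc3 and Cit. All 6 fell, with a median log2 fold change of -0.90 beside -0.94 for the 29 with one. Ccnb1 and Plk4 held the variant TTTAAA, and the 4 with neither core nor variant had a median of -0.86. Genes with and without these letters were thus both among those that fell.

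**Figure D2:**
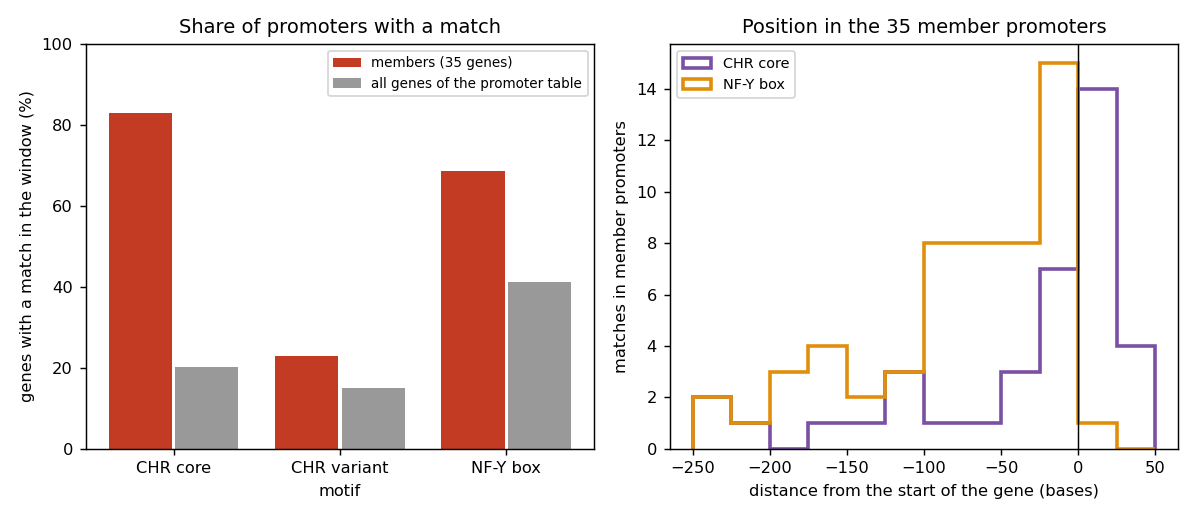
Left, the percentage of genes with a CHR core, CHR variant or NF-Y (CCAAT) box in the promoter window, for the 35 members and for all genes of the table; right, the number of matches in the 35 member promoters by distance from the gene start in bins of 25 bases. CHR cores gather around the start and NF-Y boxes before it.

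The genes that start mitosis fell together, 7 of 8, with a median log2 fold change of -0.92. Cdk1 (ENSMUSG00000019942, GRCm38 chromosome 10, 69335146 to 69352938, minus strand), the kinase that drives entry, stood at 203, 219 and 223 CPM in control and 116, 103 and 119 CPM in GR-cKO. The groups were far apart, and the log2 fold change was -0.93 ± 0.07 (SE; n = 3 each, edgeR adjusted p = 2.65e-09). Its partner cyclin A2, Ccna2, read 46.4, 44.5 and 44.0 CPM in control and 18.4, 25 and 24.4 CPM in GR-cKO, a log2 fold change of -1.0 ± 0.12 (edgeR adjusted p = 1.1e-06). The B cyclins, which CDK1 needs for entry itself, fell by 0.92 ± 0.12 (Ccnb1) and 0.76 ± 0.15 (Ccnb2) on the log2 scale.

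Among the mitotic kinases, the centrosome kinase genes showed the larger decreases. Aurka (ENSMUSG00000027496, chromosome 2, 172356190 to 172370535, minus strand), whose kinase matures centrosomes and is activated on the spindle by TPX2, read 42.8, 45.8 and 47.3 CPM in control and 19.2, 20.3 and 18.4 CPM in GR-cKO. Its log2 fold change was -1.23 ± 0.11 (edgeR adjusted p = 9.61e-09). Plk4, which triggers centriole duplication, was at 13.2 ± 1.6 and 5.73 ± 0.429 CPM (mean ± SD over 3 libraries, as in all such pairs here). Its log2 fold change was -1.20 ± 0.18. Plk1, which acts at entry, on the spindle and in cytokinesis, was more abundant and less changed. It read 114, 116 and 115 CPM in control and 63.9, 65.4 and 70.9 CPM in GR-cKO, a log2 fold change of -0.79 ± 0.08 (edgeR adjusted p = 9.29e-08). The differences between these kinases were not tested.

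Cdc25c, the phosphatase that removes the inhibitory phosphates from CDK1, was the member of this role that did not pass. It read 5.46, 5.06 and 5.97 CPM in control and 3.93, 3.73 and 1.08 CPM in GR-cKO. The groups did not overlap, but replicate 3 of GR-cKO lay far below the other two, and the log2 fold change of -0.91 ± 0.34 had an edgeR adjusted p of 0.077. With the replicate number as a block it passed (0.0206), as it did without a filter on low counts (0.0219). Without GR-cKO replicate 3 its log2 fold change was -0.51 (adjusted p = 0.258).

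The proliferation antigen Ki-67 and the exit machinery were lower as well. Mki67 (chromosome 7, 135689784 to 135716361, minus strand), which coats mitotic chromosomes and marks cycling cells, read 56.4, 42.8 and 38.4 CPM in control and 23.4, 26.3 and 21.9 CPM in GR-cKO. The control values were spread, with replicate 1 the highest, yet all lay above the GR-cKO values (log2 fold change -0.94 ± 0.13, edgeR adjusted p = 7.63e-06). Cdc20, the activator of the anaphase-promoting complex, read 121, 141 and 126 CPM and then 70.1, 71.2 and 81.9 CPM in GR-cKO. Ube2c, the ubiquitin-conjugating enzyme of that complex, read 110, 116 and 123 CPM and then 66.8, 63.9 and 68.0 CPM. Their log2 fold changes were -0.79 ± 0.08 and -0.82 ± 0.08 (edgeR adjusted p = 2.83e-07 and 6.16e-08), both less than the members' median in size.

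Of the 8 spindle motor genes 6 fell, with a median log2 fold change of -0.89. Kif11 (ENSMUSG00000012443, chromosome 19, 37376403 to 37421859, plus strand) encodes the motor Eg5 that pushes spindle poles apart. It read 14.3, 16.6 and 17.9 CPM in control and 7.36, 8.46 and 6.89 CPM in GR-cKO, a log2 fold change of -1.10 ± 0.17 (edgeR adjusted p = 3.48e-05). Kif15, which can take over from Eg5 in keeping the spindle bipolar, read 20.5, 20 and 22.6 CPM and then 13.1, 10.5 and 11 CPM (-0.87 ± 0.14). Both genes were thus lower without overlap between groups.

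Kif2c encodes MCAK, which depolymerizes microtubules at kinetochores and corrects faulty attachments. Its values were 19.9, 16.1 and 17.7 CPM in control and 8.39, 8.01 and 10.3 CPM in GR-cKO (log2 fold change -1.01 ± 0.16). Kif22, a chromosome-arm motor, had the smallest decrease among the motors that passed, from 25.5, 28.3 and 30.1 CPM to 16.3, 17.3 and 19.2 CPM (-0.67 ± 0.12). Kif4, another chromosome-arm motor and the one member on the X chromosome, was at 12.8 ± 1.66 and 6.47 ± 1.04 CPM, a log2 fold change of -0.99 ± 0.19.

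The 3 scarcest motor genes were less certain. Kif18a, which dampens chromosome oscillations, passed narrowly at -0.85 ± 0.27 (edgeR adjusted p = 0.0386). It no longer passed with ERCC scaling (0.0889) or without any 1 of 5 libraries, control replicate 1 (0.0949), 2 (0.0894) or 3 (0.0654), or GR-cKO replicate 2 (0.16) or 3 (0.0795). Kif18b, which keeps astral microtubules short, read 3.26, 6.27 and 5.58 CPM in control and 1.90, 0.896 and 5.30 CPM in GR-cKO. Its groups overlapped because GR-cKO replicate 3 stood at a control-like level, and the edgeR adjusted p was 0.165 (log2 fold change -0.91 ± 0.42). It was 0.0026 without that library, with a log2 fold change of -1.83, 0.026 with the replicate block and 0.031 without a filter on low counts. Without GR-cKO replicate 2 the log2 fold change of Kif18b was -0.49 (adjusted p = 0.509). Kifc1, a minus-end motor that focuses spindle poles, read 5.36, 4.31 and 3.90 CPM and then 3.02, 3.04 and 2.16 CPM, without overlap (-0.72 ± 0.29, adjusted p = 0.11).

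Among the 10 spindle-associated proteins 9 fell, with a median log2 fold change of -0.91, and this role held both the largest and the smallest difference of all 40 genes. Hmmr (ENSMUSG00000020330, chromosome 11, 40701395 to 40733422, minus strand), which acts with TPX2 at spindle poles, was the most reduced. It read 28.6, 25.8 and 26.6 CPM in control and 12.8, 10.7 and 8.85 CPM in GR-cKO, a log2 fold change of -1.32 ± 0.14 (edgeR adjusted p = 4.03e-07). Nusap1, which bundles microtubules near chromosomes, read 39.4, 36.9 and 35.8 CPM and then 18.1, 18 and 14 CPM (-1.16 ± 0.12, adjusted p = 2.3e-07). In both genes each GR-cKO library was well under the lowest control library.

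Tpx2, which nucleates spindle microtubules and activates Aurora A, read 61.1, 59.2 and 63.6 CPM in control and 36.8, 34.0 and 34.1 CPM in GR-cKO (log2 fold change -0.81 ± 0.09, edgeR adjusted p = 7.1e-07). Stmn1, a tubulin-sequestering protein that is also used outside mitosis, read 91.4, 107 and 108 CPM and then 59.9, 53.0 and 64.8 CPM (-0.79 ± 0.09, adjusted p = 9.48e-07). The pole proteins Aspm and Spag5 had log2 fold changes of -1.15 ± 0.14 and -1.29 ± 0.22, and Tacc3, Ckap2 and Ckap2l lay between -0.94 and -0.82.

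Ckap5 stood apart from the rest. It encodes chTOG, a microtubule polymerase that cells also use between divisions, and it read 49.2, 43.7 and 38.9 CPM in control and 35.6, 42.4 and 37.7 CPM in GR-cKO. The groups overlapped, and the log2 fold change of -0.19 ± 0.11 did not pass (edgeR adjusted p = 0.284). It was -0.09 with ERCC scaling and -0.10 without control replicate 1. Its partner on the spindle, Tacc3, was at 39.0, 36.0 and 39.6 CPM in control and 23.3, 19.4 and 19.4 CPM in GR-cKO. The promoter window of Ckap5 held 1 CHR core, 1 CHR variant and 2 CCAAT matches.

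All 11 cytokinesis genes fell, with a median log2 fold change of -1.03. Prc1 (ENSMUSG00000038943, chromosome 7, 80294450 to 80316259, plus strand), which bundles the antiparallel microtubules of the central spindle, read 59.1, 52.1 and 56.8 CPM in control and 26.1, 25.5 and 29.4 CPM in GR-cKO. The log2 fold change was -1.05 ± 0.10 (edgeR adjusted p = 4.82e-08). Kif23, the motor of the centralspindlin complex, read 49.7, 58.4 and 53.6 CPM and then 30.2, 30.2 and 27.7 CPM (-0.88 ± 0.10, adjusted p = 7.2e-07), and its partner Racgap1 was at 38 ± 7.6 and 20.6 ± 2.71 CPM (-0.88 ± 0.14). Both subunits of centralspindlin thus had the same log2 fold change to 2 decimals.

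Centralspindlin recruits ECT2, the exchange factor that switches on RhoA at the cell equator. Ect2, singled out for this role after its values were seen, read 18.7, 17.2 and 19.2 CPM in control and 4.15, 8.91 and 10.1 CPM in GR-cKO. Replicate 1 of GR-cKO was the lowest, and all 3 lay below control (log2 fold change -1.26 ± 0.22, edgeR adjusted p = 0.000157). Anln, the scaffold that links RhoA, actin and myosin in the ring, read 24.3, 25.4 and 22.3 CPM and then 10.6, 10.9 and 11.6 CPM (-1.12 ± 0.14, adjusted p = 1.63e-06).

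The motors that act late in division were lower too. Kif20a, which carries the chromosomal passenger complex to the central spindle, read 37.6, 47.6 and 38.5 CPM in control and 19.6, 20.1 and 20.7 CPM in GR-cKO (log2 fold change -1.03 ± 0.12, edgeR adjusted p = 5.57e-07). Kif20b and Kif14, a motor that localizes citron kinase, had log2 fold changes of -1.29 ± 0.17 and -0.94 ± 0.18. Cep55, which recruits the abscission machinery to the midbody, was at 13.4 ± 0.771 and 5.83 ± 1.11 CPM (-1.20 ± 0.19). The smallest decreases in this role were those of Cit, the citron kinase of the midbody, at -0.51 ± 0.15 (adjusted p = 0.0202), and of the scaffold gene Iqgap3, at -0.63 ± 0.20 (0.0364).

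Those last calls were fragile. With ERCC scaling Cit had an adjusted p of 0.0877 and Iqgap3 one of 0.0924. Cit did not pass without control replicate 1 (0.0787) or 2 (0.0628) or GR-cKO replicate 3 (0.0847), and Iqgap3 did not pass without control replicate 1 (0.126) or 2 (0.122) or GR-cKO replicate 1 (0.111), 2 (0.0647) or 3 (0.0786).

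**Figure D3:**
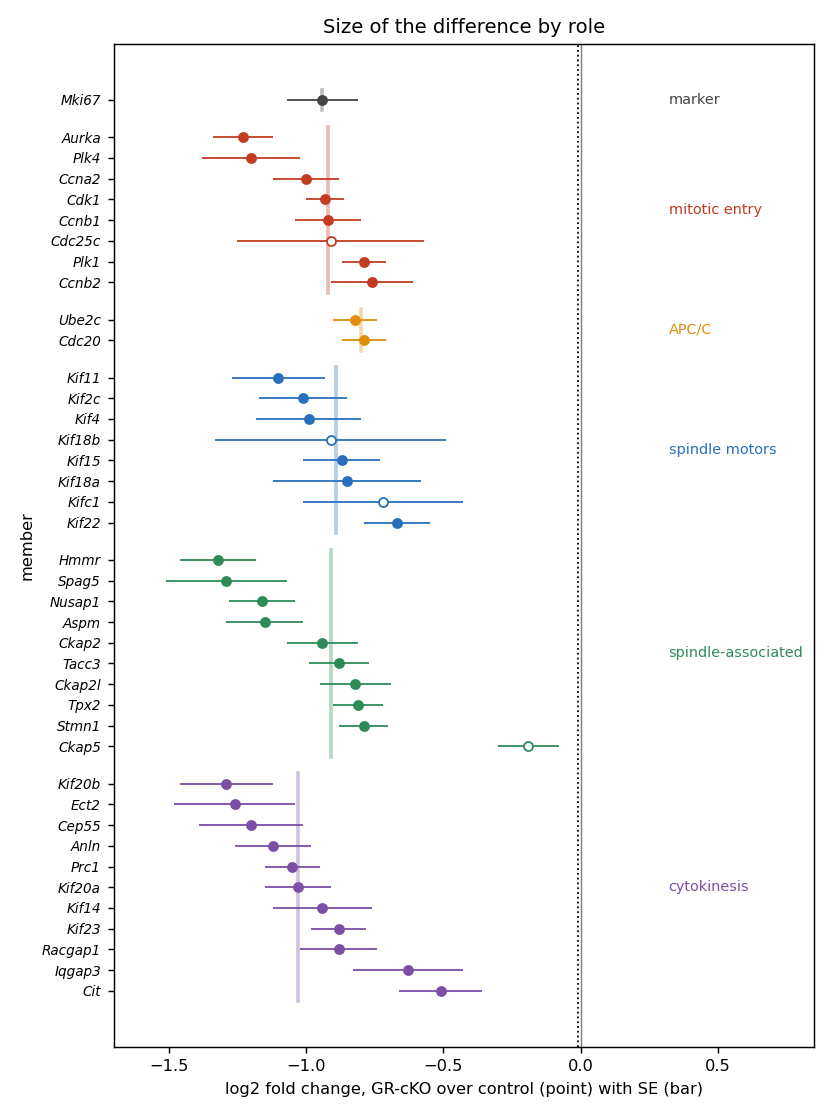
Points are log2 fold changes of GR-cKO over control with their standard errors, for the 40 genes by role; filled points passed the test, open points did not, coloured bars mark the median of each role and the dotted line the median of all genes. Role medians lie between -1.03 (cytokinesis) and -0.80 (anaphase-promoting complex), and Ckap5 at -0.19 is nearest to 0.

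Mitotic entry and cytokinesis were set side by side, since a cell that enters mitosis and skips cytokinesis becomes binucleate. The 8 entry genes summed to 482.3, 499.8 and 503.3 CPM in control and 254.9, 254.1 and 274.4 CPM in GR-cKO. The 11 cytokinesis genes summed to 302.1, 316.9 and 288.4 CPM and then 146.5, 155.5 and 159.4 CPM. The ratio of the cytokinesis sum to the entry sum was 0.626, 0.634 and 0.573 in control and 0.575, 0.612 and 0.581 in GR-cKO. These ratios overlapped between the groups, while both sums did not. Most of the entry sum came from Cdk1 and Plk1 (control means of 215 and 115 CPM), so the ratio rests largely on these genes. The role medians, -1.03 for cytokinesis and -0.92 for entry, were not tested against each other. Leaving out each library in turn gave ranges of -1.05 to -0.98 for cytokinesis and -1.0 to -0.89 for entry, which overlap. Without GR-cKO replicate 2 the medians were -1.02 and -1.0.

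Kinesins are a large family, and most of its members carry cargo in cells that do not divide. The 12 mitotic kinesins named above had a median log2 fold change of -0.92, with 10 lower, none higher and 2 not past the threshold. A list of 33 other kinesins and kinesin light chains had 28 genes with enough counts to be tested. Of these 28 none was lower, 3 were higher and 25 did not pass, with a median of 0.10. Over all genes tested 7.63% were higher and 7.19% lower, so 3 of 28 is near the share of all genes. The ubiquitous cargo motor Kif5b was the most abundant, at 449, 435 and 441 CPM in control and 449, 433 and 415 CPM in GR-cKO.

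The 3 that rose were Kif26a, a kinesin without motor activity, from 13.4 ± 2.75 to 32.4 ± 2.73 CPM (log2 fold change 1.27 ± 0.14, edgeR adjusted p = 4.43e-07), Kif21b (1.30 ± 0.26) and the light chain gene Klc1 (0.28 ± 0.07). The CHR core letters were in the promoter window of 10 of the 11 mitotic kinesins with a window and of 3 of the 24 other genes of the family with one. Of the lists described below, the chromosomal passenger complex had them in 1 of 2 windows and the entry and exit controls in 4 of 11. The regulators had them in 4 of 10, the tubulins in 1 of 11 and the contractile ring, septins and abscission in 2 of 18.

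**Figure D4:**
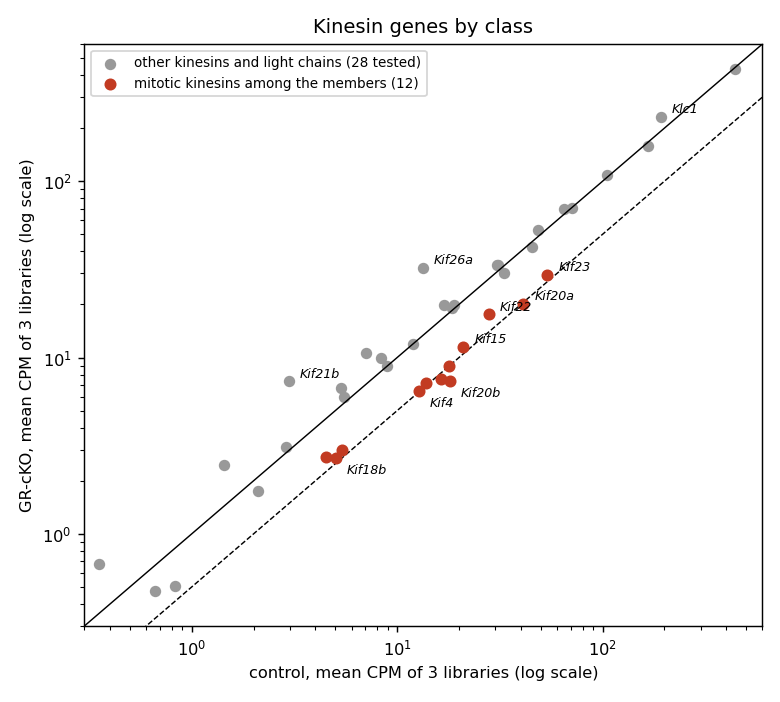
Mean CPM of 3 GR-cKO libraries against mean CPM of 3 control libraries, both on log axes, for the 12 mitotic kinesins and the 28 other kinesins and light chains tested; the solid line marks equal levels and the dashed line a level in GR-cKO that is 2-fold lower. The mitotic kinesins lie along the dashed line and most others along the solid one.

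Other genes of division were read from lists by role, beside 7.19% lower and 7.63% higher over all genes tested. The chromosomal passenger complex, which corrects attachments and then directs cytokinesis, was lower in all 4 subunits, with a median log2 fold change of -0.96. Birc5 (survivin) was at 92.2 ± 5.27 and 46.6 ± 6.38 CPM (-0.98 ± 0.10, edgeR adjusted p = 6.55e-08), and Incenp and Cdca8 had log2 fold changes of -0.87 ± 0.09 and -0.93 ± 0.10. Of 15 controls of mitotic entry and exit 8 fell and none rose, and 6 to 7 fell when any 1 library was left out. The CDK-binding protein gene Cks1b (-0.73 ± 0.09), the inhibitor of the anaphase-promoting complex Fbxo5 (-1.0 ± 0.16) and the F-box cyclin gene Ccnf (-1.25 ± 0.22) had the smallest p. Wee1, which restrains CDK1, read 22.6, 25.2 and 21.8 CPM in control and 24.9, 22.4 and 21.5 CPM in GR-cKO and did not pass.

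Among 13 regulators known to act on promoters of this kind, 3 fell and none rose, beside 7.19% lower and 7.63% higher over all genes tested. Foxm1, an activator of late cell cycle genes that is itself one of them, read 26.6, 26.6 and 30.1 CPM in control and 16.3, 15.6 and 16.9 CPM in GR-cKO (log2 fold change -0.77 ± 0.12, edgeR adjusted p = 6.34e-05). Mybl2, the MuvB partner B-Myb, had one of -0.99 ± 0.29 (adjusted p = 0.0229), and the pocket protein gene Rbl1 one of -0.77 ± 0.25 (0.038). Leaving out each library in turn gave 1 to 2 lower genes among the 13, with 1 without GR-cKO replicate 3. The constant MuvB subunits Lin9, Lin37, Lin52, Lin54 and Rbbp4 and the NF-Y subunits Nfya, Nfyb and Nfyc did not pass.

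Calls on structural parts that dividing and resting cells share differed between lists. Of 29 genes of the contractile ring, septins and abscission 3 were lower and none higher, with a median log2 fold change of -0.02. Over all genes tested 7.19% were lower and 7.63% higher, so 3 of 29 is near the share of all genes. They were Diaph3, a formin gene, at 29.2 ± 1.2 and 12.9 ± 1.8 CPM (-1.18 ± 0.13, edgeR adjusted p = 5.61e-07), Sept11 (-0.26 ± 0.07) and the myosin gene Myh9 (-0.19 ± 0.06). Without control replicate 1 or 2 or GR-cKO replicate 3 only 1 of them was lower, and with ERCC scaling 1 was lower and 1 higher. RhoA itself read 392, 399 and 397 CPM in control and 407, 383 and 319 CPM in GR-cKO, with overlap. Of 14 tubulins 6 fell, 1, Tubb2b, rose (0.68 ± 0.08) and 7 did not pass, with a median log2 fold change of -0.20. Lower calls were thus a larger share of the tubulins than the 7.19% over all genes tested. The largest decrease among those 6 was that of Tubb3 (-0.65 ± 0.12), while the abundant Tuba1a fell by 0.36 ± 0.06 on the log2 scale. With ERCC scaling 2 tubulins were lower, and 2 to 5 were when a library was left out.

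**Figure D5:**
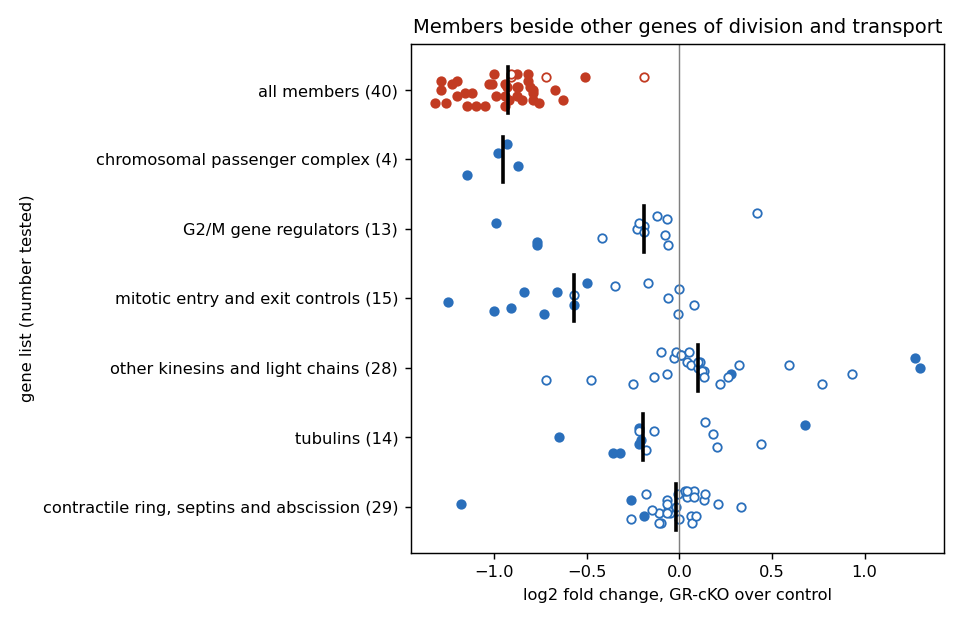
Log2 fold changes of GR-cKO over control for the 40 members and for 6 lists of other genes; filled points passed the test, open points did not, and black bars are medians. The passenger complex sits with the members at a median of -0.96, and the other kinesins, tubulins and contractile ring genes centre nearer to 0.

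The counting could mix genes at a few loci. For 7 members, Ccna2, Cdc20, Ube2c, Kif18b, Ckap2l, Kif20a and Prc1, the annotated 3′ end lies inside a gene on the opposite strand, and the sources used here do not give the strand setting of the counting. The opposite genes Exosc9, Elovl1, Cdc23 and Rccd1 had log2 fold changes of 0.05 ± 0.10, -0.10 ± 0.09, -0.22 ± 0.08 and -0.28 ± 0.42 and did not pass, and the other 3 had too few counts to be tested. Of the 33 members without such an overlap 30 fell, with a median of -0.93. Named pseudogenes or related sequences of Ccnb1, Ccnb2, Kif4, Kif22 and Stmn1 held at most 1 count in any library. Only sequences named after a member were searched for, so copies under other names were not looked for. The handling of multi-mapping reads is not given either, so these 5 members, and any other member with such a copy, are uncertain to that extent.

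The libraries also differed in other RNAs beside these results. The counts of markers below stand beside 7.63% higher and 7.19% lower over all genes tested. Cardiomyocyte markers were abundant in all 6, and the 15 markers summed to 40300 to 42000 CPM in control and 49400 to 51700 CPM in GR-cKO, with 9 higher and 2 lower. Of 10 fibroblast markers 4 rose and 1 fell (sums of 3620 to 3830 and 4730 to 4850 CPM), of 10 endothelial markers 7 rose and 1 fell (1080 to 1120 and 1310 to 1420 CPM), and 6 of 10 smooth muscle and pericyte markers rose, with none lower (3760 to 3870 and 4470 to 4680 CPM). The 10 epicardial markers went both ways, 4 up and 3 down (157 to 165 and 257 to 289 CPM). Leukocyte markers were scarce, at 13.9 to 18.2 and 35.8 to 56.6 CPM, with 3 higher of 6 tested. Erythroid sums (1.31 to 3.21 and 3.52 to 4.99 CPM, Slc4a1 at 0 in all libraries) and neural sums (23.1 to 24.4 and 15.0 to 22.1 CPM) held no marker that passed. Which cells the mitotic RNAs came from was not measured, and the part of these other cell types in the result was not tested.

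Sex-linked RNA differed as well. Xist read 292, 271 and 272 CPM in control and 0, 0.0995 and 0 CPM in GR-cKO, and the Y-linked Ddx3y 19.9, 21.3 and 18.3 CPM and then 86.3, 94.6 and 86.6 CPM. Each control library thus held both Xist and Y-linked RNA, while each GR-cKO library held Y-linked RNA and almost no Xist. The labels give no sex. Sex and genotype cannot be told apart in these libraries. With the genes of chromosomes X and Y left out of the fit, 35 of the remaining 39 members were lower. That fit keeps the same libraries and the same counts of the autosomal members, so it cannot separate sex from genotype.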

How the data were processed

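Messenger RNA was measured in 6 libraries of cultured neonatal mouse cardiomyocytes, 3 control and 3 GR-cKO, grouped by sample title. The authors deposited raw counts per gene, without normalization. Per the labels' protocols, QuantSeq 3′ forward libraries were prepared from 100 ng of RNA. The submitters' processing notes name cutadapt 1.16, STAR 2.5.4a, featureCounts 1.6.2, DESeq2 1.18.1 and GRCm38. Spike-in rows (92 ERCC, 7 SIRV; 1.98% to 2.36% of counts) stayed out of library sizes and tests. Symbols and 1-based coordinates came from GENCODE M21, promoters from RefSeq (GRCm38.p6).

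All genes were fitted with edgeR 4.0.16 (R 4.3.3): TMM factors (0.98 to 1.02), the default low-count filter, the quasi-likelihood test of genotype, and Benjamini-Hochberg adjustment over 14386 genes. The script was tested on simulated data. Each standard error was the fold change divided by the root of F. A count of 0 allows up to 0.133 to 0.155 CPM (3 counts, counting error only). Within groups, libraries differed beyond sampling noise (median chi-square 2.48 to 3.69 per gene, against 0.455), so none was dropped as a repeat of another. This does not show that the 6 came from separate animals or cultures.

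The members and lists were chosen with earlier results of these data known. Per-library values are given for the 4 genes of each role with the smallest p and for those that did not pass. Of each further list the 3 genes with the smallest p are named, with Foxm1 and Mybl2 in any case. Promoters were printed for 1 gene per role, leaving out chromosome 18. Tacc3, Ect2, Wee1, Rhoa and Kif5b were added after their values were seen. Alternatives were other scalings, DESeq2 1.42.0, other filters, X and Y left out, a replicate block and each library left out.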

Additional observations from a re-analysis of the deposited data

How the results depend on the processing

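All 559 log2 fold changes of members under the 14 alternative fits stayed below 0. Between 33 and 38 members were lower in every fit, 36 of them with DESeq2 as with edgeR; Kif18a, Cit and Iqgap3 lost the call and Cdc25c and Kif18b gained it under the settings given with them above, and Kif4 left the fit with the X chromosome. ERCC scaling gave 522 lower genes in all in place of 1035, and moved the medians to -0.83 for the 40 members, -0.83 for mitotic entry, -0.71 for the anaphase-promoting complex, -0.79 for spindle motors and -0.82 for spindle-associated proteins, with the median of all genes at 0.09; the cause was not tested. Leaving out each library in turn gave medians of -1.0 to -0.89 for mitotic entry, -0.94 to -0.80 for spindle motors, -0.97 to -0.84 for spindle-associated proteins and -0.96 to -0.89 for all members, and 1572 to 1879 genes past the threshold in all, where 2132 were reported. The replicate numbers showed no pairing (correlations of same-numbered libraries 0, 0.037 and 0.02); the fit with the replicate block called 2353 genes and 38 members. With promoter windows cut to 150 bases before the start, 80.0% of the members and 12.8% of all genes held a CHR core. Depth limits the members under 10 CPM, whose counts fell as low as 18 in a library.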
